A study of Homo sapiens with 18 samples.

Results

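The p53 target genes are genes whose transcription the tumour suppressor p53 raises directly. The 31 described here were chosen by symbol as well-known targets, with earlier results of these data known but with no cut on a measured value, and all 31 were found among the 56609 genes of the counts table and passed the filter of 10 counts summed over the libraries. They were measured by RNA-seq in HG3, MEC2 and PCL12, human cell lines derived from chronic lymphocytic leukemia (CLL), a B cell malignancy. All 3 lines carry Epstein-Barr virus, each is a single established line, and all were grown in the same serum-containing medium. Each line had 3 unstimulated libraries and 3 libraries of cells stimulated for 4 h with 2.5 µg/mL ODN-2006, a class B CpG oligonucleotide that is an agonist of TLR9, which makes 18 libraries.

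p53 is a transcription factor that is made continuously and degraded after MDM2, itself a p53 target, attaches ubiquitin to it. DNA damage and other stress release p53 from MDM2, and p53 then binds response elements and raises genes that arrest the cell cycle, repair DNA, alter metabolism or start apoptosis. Many of these genes keep a basal level that needs p53 in unstressed cells, so they are commonly read together as a measure of p53 activity. The comparison of unstimulated lines addressed how far the target genes differed between the lines, and the comparison of CpG-stimulated with unstimulated cells whether TLR9 stimulation moved them.

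Library totals ran from 20382943 to 67308932 counts. Levels are given in CPM, counts scaled to library size by TMM, which are not corrected for gene length, so levels are compared between libraries and not between genes. Replicate 2 of unstimulated HG3 was rich in mitochondrial counts (20.2%), as was replicate 2 of stimulated MEC2 (19.7%), while the remaining 16 libraries had 2.82% to 9.28%. In PCL12, replicates 2 and 3 of both treatments held 29.0% to 31.3% of the MEC2 level over 45 genes that are high in MEC2 and were selected as low in PCL12 replicate 1. Over the same genes the HG3 libraries held 6.61% to 14.2%. These 4 PCL12 libraries may contain MEC2 material, and whether that is cells, RNA or reads cannot be told apart from the counts. PCL12 values that include them may be partly those of MEC2, above all in differences between PCL12 and MEC2. PCL12 differences that passed the test are therefore also given from replicate 1 alone, by gene or as a count. A fit with replicate 1 alone has 1 PCL12 library in each treatment and assumes that it varies like the libraries of the other groups, so its adjusted p-values rest on the spread in HG3 and MEC2. B cell markers summed to 2430 to 4270 CPM in every library. Markers of other cells summed to 12.8 to 86.9 CPM, mostly COL1A1, which reached 81.5 CPM in HG3, while COL1A2 stayed at or below 0.462 CPM and the platelet marker PPBP was at 0 in 17 libraries. Each group held 3 libraries, and nothing in the labels says that they came from separate cultures, so p-values measure the spread between these libraries, which may be technical. With 3 against 3 libraries, an exact permutation test of a single gene cannot go below p = 0.1. Unless another method is named, the tests below are edgeR's quasi-likelihood test fitted across all genes. Their p-values have Benjamini-Hochberg adjustment unless called unadjusted or nominal. In bulk RNA, fewer cells expressing a gene and less RNA per cell cannot be told apart.

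A p53 response element consists of a pair of decamers, the p53 half-sites, that follow each other directly or after a short spacer. Promoter windows of RefSeq (GRCh38.p14), from 250 bases before to 50 bases after the start of transcription, were found for 25 of the 31 targets. They were searched for 2 half-sites with a spacer of 0 or 1 bases, at most 3 mismatches and the invariant C and G of each half-site kept. This pattern reads the same on both strands. It was present in 7 of the 25 targets (28%) and in 795 of 27305 genes (2.91%). Since the genes were chosen as known targets, the share describes the set and is no independent evidence. The 7 elements are shown in capitals because they are the sequence that the genes share, with up to 30 neighbouring bases in lower case where these lie outside exons.
MDM2: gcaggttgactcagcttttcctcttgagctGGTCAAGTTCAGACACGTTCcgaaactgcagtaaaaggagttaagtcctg
SESN1: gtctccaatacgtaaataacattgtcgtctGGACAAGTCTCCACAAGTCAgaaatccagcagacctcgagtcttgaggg
RPS27L: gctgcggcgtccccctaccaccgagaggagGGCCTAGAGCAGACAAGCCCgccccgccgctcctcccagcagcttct
AEN: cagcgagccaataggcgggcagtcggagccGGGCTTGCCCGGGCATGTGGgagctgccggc
DDB2: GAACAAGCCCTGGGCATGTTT
FDXR: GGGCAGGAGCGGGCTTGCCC
GDF15: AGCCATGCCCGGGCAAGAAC

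The MDM2 element lies at chr12:68808923-68808942 on the plus strand, inside an intron of the longer MDM2 transcripts, and those of SESN1 (chr6:109009018-109009037) and RPS27L (chr15:63157527-63157546) lie on the minus strand, also inside introns of longer transcripts. The AEN element (chr15:88621306-88621325, plus strand) lies between genes, just before the first exon. DDB2 (chr11:47214979-47214999, plus strand), FDXR (chr17:74872996-74873015, minus strand) and GDF15 (chr19:18386186-18386205, plus strand) carry theirs in an exon. The DDB2 element had 0 mismatches and a spacer of 1 base, those of MDM2 and AEN had 2 mismatches, and the other 4 had 3. RRM2B, TNFRSF10B, TNFRSF10A, PHLDA3, TP53INP1 and GADD45A had no window in the table. Elements outside these windows were not searched for.

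Many p53 target genes were lower in unstimulated MEC2 and PCL12 than in unstimulated HG3. Against HG3, 14 of 31 were lower in MEC2 and 0 were higher at an adjusted p under 0.05, the threshold used for all calls between lines. The list's median difference was -1.07 on the log2 scale, against 0 over all genes tested. Over all 31872 genes, 9.78% were called in that comparison in either direction and 4.97% as lower. Among the 13991 genes averaging 1 CPM or more, a level that every target except SPATA18 reached, 18% were called, 8.85% as lower. In PCL12, 17 targets were lower than in HG3 and 1, SUSD6, was higher, with a median of -1.14 against 0 over all genes. There 9.44% of all genes were called, 4.57% as lower, and 17.3% of the genes averaging 1 CPM or more, 8.14% as lower.

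**Figure D1:**
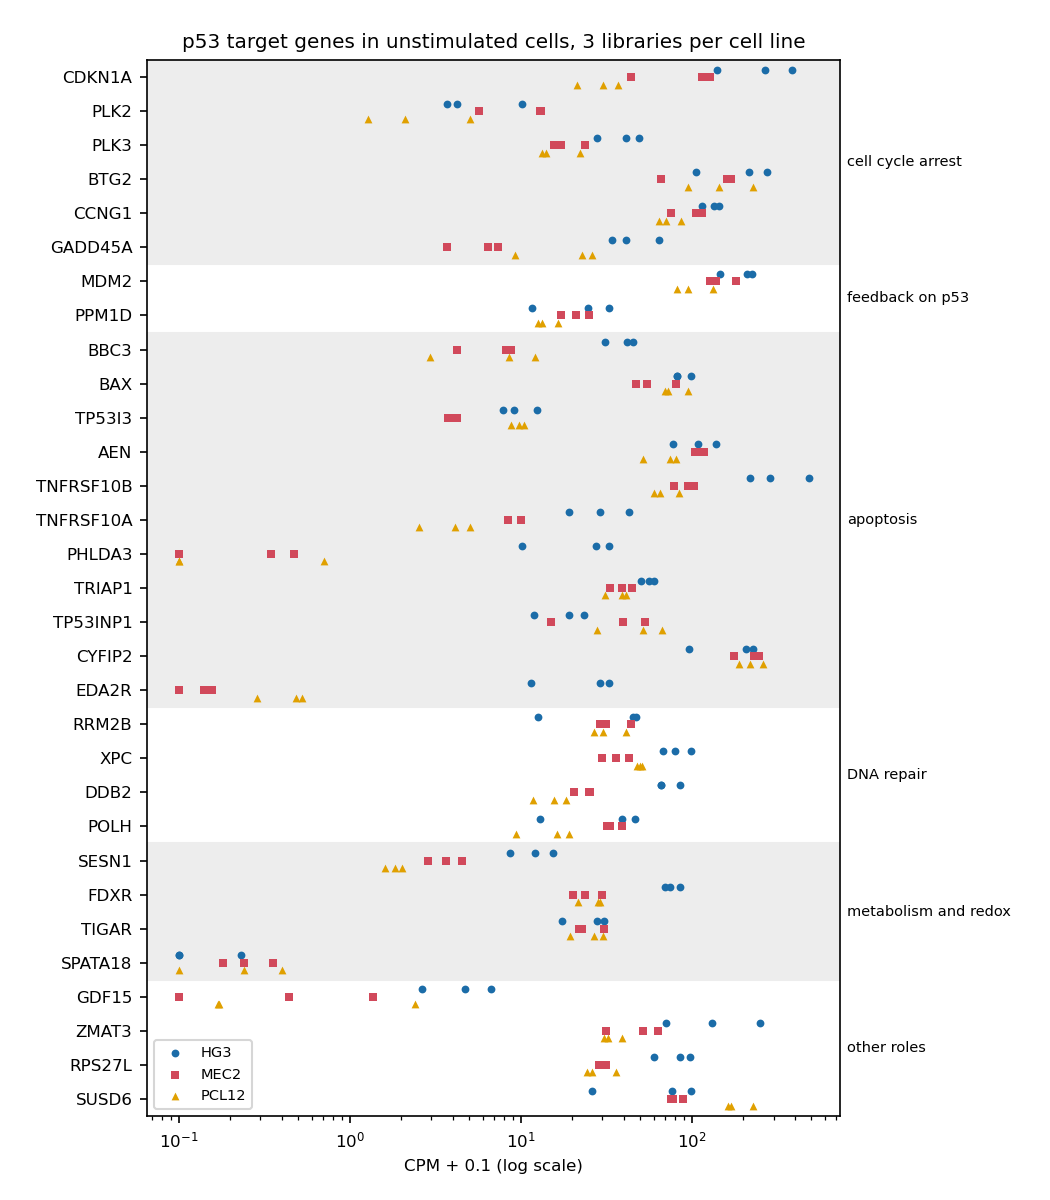
Level of the 31 p53 target genes in the 9 unstimulated libraries, as CPM with 0.1 added on a log scale, 1 point per library, 3 libraries per line (HG3 circles, MEC2 squares, PCL12 triangles), grouped by role. For 17 genes all 3 HG3 points lie to the right of every MEC2 and PCL12 point, and for EDA2R and PHLDA3 the MEC2 and PCL12 points lie near the left edge.

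The comparisons of MEC2 and PCL12 with HG3 share the 3 HG3 libraries. By mean level, HG3 was the highest of the 3 lines for 23 targets, against 36.8% of all genes and 38.8% of those averaging 1 CPM or more. For 17 of them the lowest HG3 library lay above every MEC2 and PCL12 library, against 6.39% and 10.2%. Lower in both comparisons were 13 targets, namely BBC3, CDKN1A, DDB2, EDA2R, FDXR, GADD45A, PHLDA3, RPS27L, SESN1, TNFRSF10A, TNFRSF10B, XPC and ZMAT3, against 2.95% of all genes and 5.1% of those averaging 1 CPM or more. TP53I3 was called in MEC2 alone, and CCNG1, MDM2, PLK3, POLH and SUSD6 in PCL12 alone, which by itself does not show that the lines differ. Of the 7 targets with an element in the promoter window, 4 were lower in both lines, as were 5 of the 18 with a window and no element. With PCL12 replicate 1 as the only PCL12 library, 8 of the 18 calls against HG3 passed the test again, namely CDKN1A, SESN1, DDB2, TNFRSF10B, TNFRSF10A, PHLDA3, SUSD6 and EDA2R, with 4.35% of all genes called in that fit. All 18 kept their direction, and the median over the 31 targets was -1.16.

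**Figure D2:**
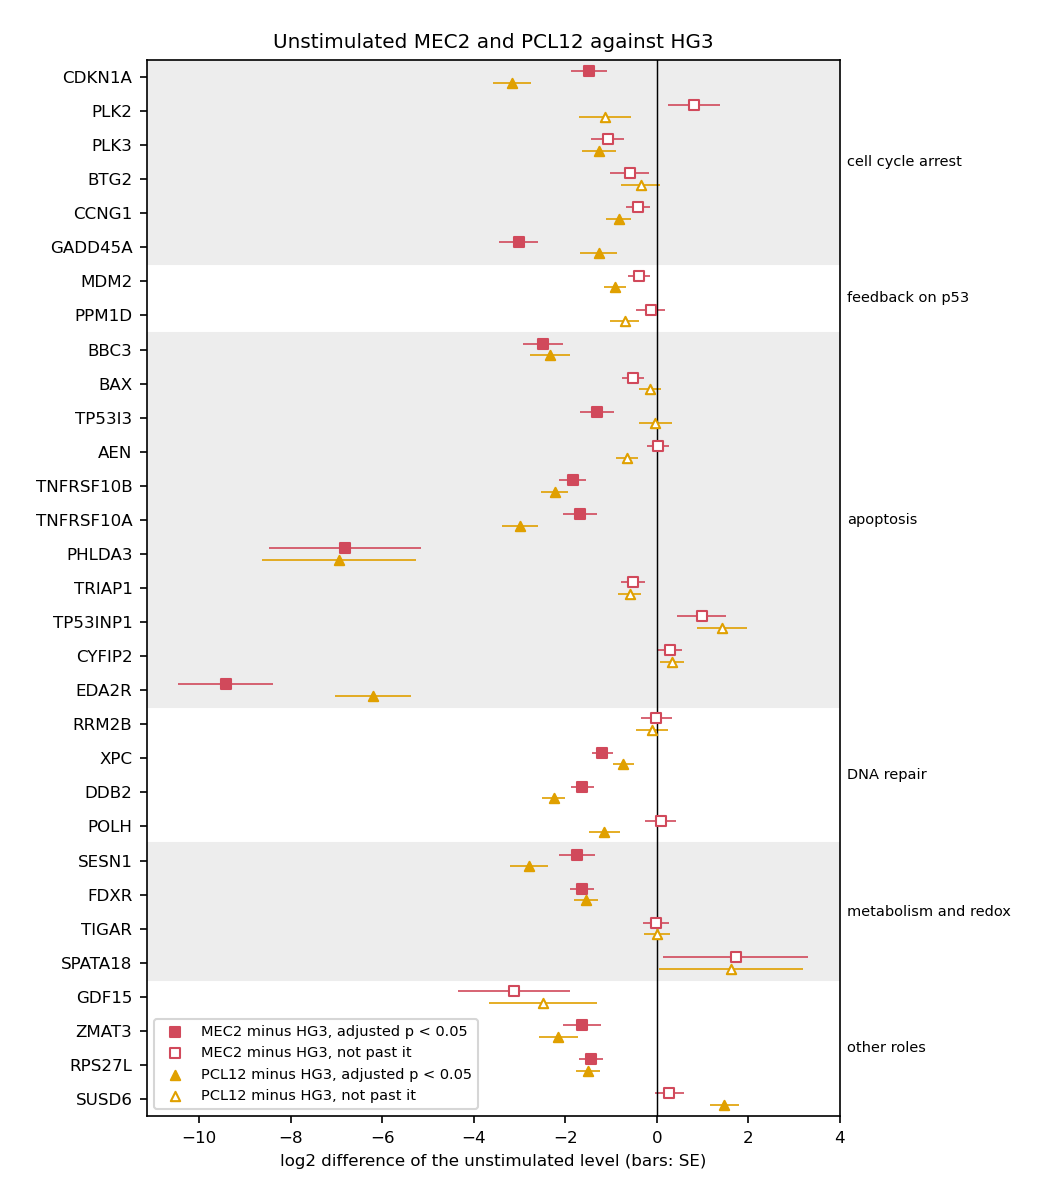
Log2 difference of the unstimulated level between MEC2 and HG3 (squares) and between PCL12 and HG3 (triangles) for the 31 p53 target genes, with bars of 1 SE, and filled symbols for an adjusted p under 0.05. Filled symbols lie left of 0 for 14 genes in MEC2 and 17 in PCL12, and SUSD6 in PCL12 is the filled symbol on the right.

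Gene positions are those of GENCODE 44 on GRCh38. Exons of CDKN1A, MDM2, BBC3, TP53I3, SESN1, XPC, TNFRSF10B, TNFRSF10A, POLH, PLK3, TIGAR, TP53INP1, CYFIP2 and FAS overlap those of genes on the opposite strand, such as DINOL for CDKN1A and RHOBTB2 for TNFRSF10B, and MDM2, BBC3, PHLDA3, TIGAR and FAS overlap other genes on their own strand. The strand setting of the counting is not given in the sources used here, so reads in all these stretches are uncertain. MDM4, which binds p53 and blocks its activity, was at 120.3, 129 and 127 CPM in HG3, 117, 90.1 and 96.3 CPM in MEC2 and 89.8, 108 and 118 CPM in PCL12, and it was called in neither line against HG3 (adjusted p = 0.545 and 0.641).

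Of 24 regulators of p53, 3 were higher and 1 lower in MEC2 than in HG3, and 2 were higher and 2 lower in PCL12. That is 4 of 24 in each line, beside 18% and 17.3% of the genes averaging 1 CPM or more, and single regulators are given as a description. These shares belong to the edgeR fit, and those for the DESeq2 counts below are not given here. Differences are given on the log2 scale with their SE. CDKN2A, whose products include p14ARF, which restrains MDM2, was higher by 1.63 ± 0.33 in MEC2 (adjusted p = 0.00129) and by 2.34 ± 0.34 in PCL12 (adjusted p = 2.06e-05). Counts per gene do not tell the products of CDKN2A apart. The kinase ATM, which activates p53 after DNA breaks, was higher in MEC2 by 1.15 ± 0.30 (adjusted p = 0.0124), a call lost without HG3 replicate 2 or MEC2 replicate 1 (adjusted p from 0.0515 to 0.0685). USP7, a deubiquitinase of p53 and MDM2, was higher by 0.88 ± 0.23 and 0.75 ± 0.23 (adjusted p = 0.0113 and 0.0353), and the PCL12 call was lost without HG3 replicate 2 or PCL12 replicates 1, 2 or 3 (adjusted p from 0.0517 to 0.128). With only the groups compared in the fit, neither ATM in MEC2 nor USP7 in either line was called (adjusted p = 0.0702, 0.0860 and 0.167). The p53 relative TP73 was lower, at -1.52 ± 0.33 in MEC2 and -2.25 ± 0.34 in PCL12 (adjusted p = 0.00257 and 3.62e-05), and the chaperone DAXX was lower in PCL12, at -1.01 ± 0.21 (adjusted p = 0.00195). Without the PCL12 libraries of replicates 2 and 3, 2 of the 24 were called in PCL12, CDKN2A at 2.56 (adjusted p = 0.000851) and TP73 at -1.81 (adjusted p = 0.0318), with DAXX (-0.89, adjusted p = 0.212) and USP7 (0.67, adjusted p = 0.455) no longer among them, and DESeq2 called 7 in MEC2 and 6 in PCL12.

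Of the 6 targets that arrest the cell cycle, CDKN1A and GADD45A were lower in both lines. CDKN1A (chr6:36676460-36687337, plus strand) encodes p21, an inhibitor of cyclin-dependent kinases, and was at 269, 141 and 384 CPM in HG3, 114, 128 and 43.8 CPM in MEC2 and 30.3, 37.05 and 21.1 CPM in PCL12. All HG3 libraries were above all others, and the lowest MEC2 library was above the highest PCL12 one. The differences from HG3 were -1.48 ± 0.39 in MEC2 (adjusted p = 0.0167) and -3.17 ± 0.42 in PCL12 (adjusted p = 1.55e-05). The MEC2 call was lost without HG3 replicate 3 or MEC2 replicate 3 (adjusted p from 0.0693 to 0.101) and with only the groups compared in the fit (adjusted p = 0.0616), and PCL12 replicate 1 alone gave -3.11 (adjusted p = 0.00924). GADD45A (chr1:67685201-67688334, plus strand), a stress sensor that acts in growth arrest and DNA demethylation, was at 34.05, 41.2 and 64.5 CPM in HG3, 6.36, 7.31 and 3.62 CPM in MEC2 and 26.1, 22.6 and 9.19 CPM in PCL12. Here MEC2 was the lowest line without overlap. Its differences were -3.02 ± 0.43 in MEC2 (adjusted p = 2.18e-05) and -1.27 ± 0.40 in PCL12 (adjusted p = 0.0449), and the PCL12 call was lost without HG3 replicates 2 or 3 or PCL12 replicates 2 or 3 (adjusted p from 0.0802 to 0.219) and with replicate 1 alone, -0.82 (adjusted p = 0.577).

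PLK3, a stress-activated polo-like kinase, was at 27.96, 49.1 and 41.2 CPM in HG3, 23.5, 17.1 and 15.6 CPM in MEC2 and 13.9, 22.2 and 13.2 CPM in PCL12, with the 3 HG3 libraries above the rest. It was called in PCL12 (-1.26 ± 0.37, adjusted p = 0.0263), a call lost without HG3 replicates 2 or 3 or PCL12 replicates 1 or 3 (adjusted p from 0.0616 to 0.122), and MEC2 had -1.07 ± 0.36 (adjusted p = 0.0637). CCNG1, cyclin G1, was at 135, 114 and 144 CPM in HG3, 106, 114 and 75.6 CPM in MEC2 and 70.3, 64.5 and 85.8 CPM in PCL12, and its difference in PCL12 of -0.83 ± 0.27 had an adjusted p of 0.0496. That call was lost without HG3 replicates 1 or 3 or PCL12 replicates 1, 2 or 3 (adjusted p from 0.0649 to 0.176). Replicate 1 alone gave -1.48 (adjusted p = 0.196) for PLK3 and -0.88 (adjusted p = 0.393) for CCNG1. BTG2, an antiproliferative cofactor of mRNA deadenylation, overlapped between the lines at 274, 106 and 216 CPM in HG3, 160.2, 169 and 65.8 CPM in MEC2 and 229, 143 and 95.3 CPM in PCL12. PLK2, another polo-like kinase, was at 3.58, 4.13 and 10.1 CPM in HG3, 12.8, 13.1 and 5.61 CPM in MEC2 and 1.19, 4.92 and 2.02 CPM in PCL12 and was called in neither line against HG3 (adjusted p = 0.402 and 0.248).

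Of the 2 targets that feed back on p53, MDM2 was lower in PCL12. MDM2 (chr12:68808177-68845544, plus strand), the ubiquitin ligase of p53, was at 225, 146 and 211 CPM in HG3, 180.4, 138 and 127 CPM in MEC2 and 81.7, 94.8 and 132 CPM in PCL12, and the MEC2 libraries overlapped those of HG3. Its difference was -0.38 ± 0.25 in MEC2 (adjusted p = 0.365) and -0.91 ± 0.25 in PCL12 (adjusted p = 0.0168). The PCL12 call was lost without HG3 replicates 1 or 3 or PCL12 replicates 1 or 2 (adjusted p from 0.0546 to 0.0916), and replicate 1 alone gave -1.23 (adjusted p = 0.104). PPM1D, the phosphatase WIP1 that switches off p53 signalling, was at 24.6, 11.5 and 32.6 CPM in HG3, 21.03, 24.9 and 16.98 CPM in MEC2 and 13.2, 12.5 and 16.5 CPM in PCL12 and was not called (adjusted p = 0.901 and 0.189). The lowest PPM1D value in HG3 was that of replicate 2, the library with 20.2% mitochondrial counts.

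Among the 11 targets that act in apoptosis, 6 were lower in MEC2 and 5 in PCL12. The death receptors TNFRSF10B (chr8:23020133-23069031, minus strand) and TNFRSF10A (chr8:23190452-23225102, minus strand) bind the ligand TRAIL. TNFRSF10B was at 286, 218 and 480.3 CPM in HG3, 102, 95.01 and 78.5 CPM in MEC2 and 60.3, 84.5 and 64.6 CPM in PCL12, and its lowest HG3 value exceeded every value in MEC2 and PCL12. The differences were -1.84 ± 0.30 in MEC2 (adjusted p = 8.58e-05) and -2.23 ± 0.30 in PCL12 (adjusted p = 7.17e-06). TNFRSF10A was at 28.9, 19.1 and 42.7 CPM in HG3, 9.88, 8.37 and 10.001 CPM in MEC2 and 2.44, 4.92 and 4.02 CPM in PCL12, so that the 3 lines did not overlap, with differences of -1.68 ± 0.37 (adjusted p = 0.00301) and -3.00 ± 0.39 (adjusted p = 5.62e-06). Replicate 1 of PCL12 alone gave -2.43 (adjusted p = 0.00447) for TNFRSF10B and -3.62 (adjusted p = 0.000273) for TNFRSF10A.

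BBC3 (chr19:47220822-47232766, minus strand) encodes PUMA, a BH3-only protein that frees BAX to form pores in mitochondria, and was at 30.9, 41.5 and 45.4 CPM in HG3, 8.11, 8.70 and 4.13 CPM in MEC2 and 12.1, 8.45 and 2.83 CPM in PCL12. Both lines were below HG3 without overlap, at -2.49 ± 0.44 in MEC2 (adjusted p = 0.000235) and -2.34 ± 0.43 in PCL12 (adjusted p = 0.000456), and PCL12 replicate 1 alone gave -1.69 (adjusted p = 0.0763). BAX itself was at 98.3, 82.2 and 81.7 CPM in HG3, 54.4, 47.2 and 81.2 CPM in MEC2 and 94.5, 69.4 and 72.2 CPM in PCL12, and its differences of -0.52 ± 0.25 and -0.15 ± 0.25 did not pass the test (adjusted p = 0.217 and 0.796). TP53I3, the quinone oxidoreductase PIG3, was at 9.06, 12.3 and 7.76 CPM in HG3, 3.64, 4.12 and 4.02 CPM in MEC2 and 9.62, 8.63 and 10.3 CPM in PCL12. MEC2 lay below HG3, at -1.30 ± 0.37 (adjusted p = 0.0225), a call lost without HG3 replicate 2 or MEC2 replicates 1, 2 or 3 (adjusted p from 0.0624 to 0.0989), and PCL12 differed from HG3 by -0.03 ± 0.36. The difference of PCL12 from MEC2 was 1.28 ± 0.37 and was not called (adjusted p = 0.0773).

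EDA2R and PHLDA3 were present in HG3 and at or near 0 in the other lines. EDA2R (chrX:66595637-66639298, minus strand), a receptor of the TNF receptor family that binds ectodysplasin A2, was at 28.8, 11.3 and 32.6 CPM in HG3, 0.0573, 0.0408 and 0 CPM in MEC2 and 0.385, 0.428 and 0.186 CPM in PCL12. Summed over 3 libraries, the unstimulated lines had 2769, 3 and 32 counts in HG3, MEC2 and PCL12. Scaled for depth, the HG3 level was 848 times that of MEC2 (95% interval 290 to 4113) and 86.1 times that of PCL12 (60.8 to 126), with exact intervals that cover counting error only. PHLDA3 (chr1:201464278-201469237, minus strand), a repressor of the kinase AKT, was at 10.1, 32.5 and 27.4 CPM in HG3, 0.372, 0.245 and 0 CPM in MEC2 and 0, 0.606 and 0 CPM in PCL12, with 2130, 19 and 17 summed counts. Its HG3 level was 103 times that of MEC2 (65.8 to 171) and 125 times that of PCL12 (77.6 to 214). All 17 PHLDA3 counts of unstimulated PCL12 came from replicate 2, one of the libraries that may contain MEC2 material, so the ratio to PCL12 rests on that library. A library with 0 counts allows up to 3 counts, which is 0.0429 to 0.155 CPM over the 18 libraries. Against PCL12 replicate 1 alone, with 0 counts of PHLDA3 and 12 of EDA2R, the HG3 level was at least 215-fold higher for PHLDA3 with the floor of 3 counts in that library, and 69.95 times as high for EDA2R (39.98 to 136). Both genes were called in both lines (EDA2R adjusted p = 2.13e-06 and 2.23e-05, PHLDA3 0.0188 and 0.0184), and also with PCL12 replicate 1 alone (adjusted p = 0.00856 for EDA2R and 0.0426 for PHLDA3). The PHLDA3 calls were lost in MEC2 without MEC2 replicates 1, 2 or 3 (adjusted p from 0.0624 to 0.0730) and in PCL12 without PCL12 replicates 1 or 3 (adjusted p from 0.0652 to 0.0682).

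The other 4 apoptosis genes were not called against HG3 in either line. AEN, an apoptosis-enhancing nuclease, was at 109, 77.4 and 139 CPM in HG3, 118, 109 and 104 CPM in MEC2 and 52.03, 80.9 and 74.8 CPM in PCL12. TRIAP1, a mitochondrial protein that counters apoptosis, was at 60.1, 50.5 and 56.4 CPM in HG3, 39.02, 33.3 and 44.7 CPM in MEC2 and 30.97, 38.8 and 41.04 CPM in PCL12, in which HG3 did not overlap with the other lines, but the differences of -0.51 ± 0.26 and -0.59 ± 0.26 did not pass the test (adjusted p = 0.243 and 0.172). TP53INP1, a cofactor of p53 that also acts in autophagy, was at 23.3, 11.9 and 19.1 CPM in HG3, 53.003, 39.4 and 15.02 CPM in MEC2 and 66.8, 51.9 and 27.8 CPM in PCL12, with differences of 0.98 ± 0.54 in MEC2 and 1.43 ± 0.54 in PCL12 (adjusted p = 0.296 and 0.126). CYFIP2, a subunit of the actin-regulating WAVE complex, overlapped between all lines at 208, 95.6 and 228 CPM in HG3, 229, 245 and 176 CPM in MEC2 and 261, 188 and 218 CPM in PCL12.

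Of the 4 targets in DNA repair, both damage sensors of nucleotide excision repair were lower in MEC2 and PCL12. DDB2 (chr11:47214465-47239217, plus strand), the target whose promoter element had 0 mismatches, was at 66.2, 84.6 and 66.3 CPM in HG3, 25.2, 24.8 and 20.5 CPM in MEC2 and 18.2, 15.6 and 11.7 CPM in PCL12, in 3 ranges that did not overlap. Its differences were -1.62 ± 0.24 in MEC2 (adjusted p = 3.25e-05) and -2.25 ± 0.25 in PCL12 (adjusted p = 4.11e-07), with -1.97 (adjusted p = 0.00407) from replicate 1 alone. XPC (chr3:14145147-14178621, minus strand) was at 98.6, 67.9 and 79.9 CPM in HG3, 35.96, 29.6 and 42.7 CPM in MEC2 and 51.2, 47.6 and 49.6 CPM in PCL12, with HG3 above both lines, and differed by -1.19 ± 0.23 (adjusted p = 0.000683) and -0.73 ± 0.23 (adjusted p = 0.0383). The XPC call in PCL12 was lost without HG3 replicates 1 or 3 or PCL12 replicates 1, 2 or 3 (adjusted p from 0.0668 to 0.166) and with replicate 1 alone, -0.67 (adjusted p = 0.493).

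POLH, a polymerase that copies past UV lesions, was at 46.7, 12.8 and 38.8 CPM in HG3, 39.2, 33.2 and 31.97 CPM in MEC2 and 9.33, 16.1 and 19.2 CPM in PCL12. It was called in PCL12 (-1.14 ± 0.35, adjusted p = 0.0355) and not in MEC2 (0.08 ± 0.34), and the PCL12 call was lost without HG3 replicates 1 or 3 or PCL12 replicates 1 or 2 (adjusted p from 0.0705 to 0.199) and with replicate 1 alone, -1.80 (adjusted p = 0.0557). RRM2B, the p53-inducible subunit of ribonucleotide reductase, was at 45.5, 12.6 and 46.8 CPM in HG3, 44.2, 31.3 and 29.1 CPM in MEC2 and 30.2, 26.7 and 41.2 CPM in PCL12, with differences of -0.01 ± 0.34 and -0.10 ± 0.34. For both genes HG3 replicate 2, one of the libraries rich in mitochondrial counts, was far below the other 2 HG3 libraries. Without that library POLH differed between PCL12 and HG3 by -1.50 (adjusted p = 0.000744).

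In metabolism and redox control, SESN1 and FDXR were lower in both lines. SESN1 (chr6:108984309-109094846, minus strand), a sestrin that restrains mTORC1, was at 11.96, 8.56 and 15.3 CPM in HG3, 4.41, 3.55 and 2.76 CPM in MEC2 and 1.92, 1.75 and 1.51 CPM in PCL12, again in 3 separate ranges. It differed from HG3 by -1.74 ± 0.39 in MEC2 (adjusted p = 0.00356) and -2.79 ± 0.41 in PCL12 (adjusted p = 2.65e-05), and replicate 1 alone gave -2.62 (adjusted p = 0.0270). FDXR (chr17:74862497-74873031, minus strand), the mitochondrial ferredoxin reductase, was at 69.3, 73.9 and 84.7 CPM in HG3, 29.8, 20.05 and 23.5 CPM in MEC2 and 28.9, 21.5 and 28.04 CPM in PCL12. Here MEC2 and PCL12 overlapped with each other and not with HG3, at -1.64 ± 0.27 (adjusted p = 9.48e-05) and -1.54 ± 0.26 (adjusted p = 0.000195), with -1.38 (adjusted p = 0.0657) from replicate 1 alone. TIGAR, which lowers glycolytic flux, was at 30.6, 17.4 and 27.8 CPM in HG3, 21.9, 22.7 and 30.6 CPM in MEC2 and 19.2, 26.7 and 30.02 CPM in PCL12, with differences of -0.01 ± 0.28 and 0.0002 ± 0.28. SPATA18, a factor of mitochondrial quality control, had 5, 16 and 17 summed counts in unstimulated HG3, MEC2 and PCL12, and was not called.

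Of the other 4 targets, ZMAT3 and RPS27L were lower in both lines. ZMAT3 (chr3:178960121-179072215, minus strand), an RNA-binding zinc finger protein, was at 132, 70.9 and 249 CPM in HG3, 63.1, 51.6 and 31.2 CPM in MEC2 and 30.4, 39.2 and 32.3 CPM in PCL12, with differences of -1.63 ± 0.42 (adjusted p = 0.0148) and -2.15 ± 0.43 (adjusted p = 0.00186). The MEC2 call was lost without HG3 replicate 3 or MEC2 replicate 3 (adjusted p from 0.0795 to 0.101) and with the replicate number as a block (adjusted p = 0.0570), and PCL12 replicate 1 alone gave -2.29 (adjusted p = 0.0580). RPS27L (chr15:63125872-63158021, minus strand), a close relative of ribosomal protein RPS27 with which it may share reads, was at 85.1, 97.8 and 60.1 CPM in HG3, 31.3, 30.05 and 28.5 CPM in MEC2 and 35.7, 24.2 and 26.1 CPM in PCL12. Both lines lay below HG3, at -1.44 ± 0.26 (adjusted p = 0.000302) and -1.50 ± 0.26 (adjusted p = 0.000189), with -1.16 (adjusted p = 0.1096) from replicate 1 alone. GDF15, a stress cytokine of the TGF-β superfamily, was low throughout at 2.55, 6.60 and 4.63 CPM in HG3, 0.344, 1.27 and 0 CPM in MEC2 and 2.31, 0.0713 and 0.0696 CPM in PCL12 and was not called.

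SUSD6 (chr14:69611596-69715144, plus strand), a transmembrane protein with a sushi domain, was the target that was higher in PCL12. Its level was 76.03, 25.9 and 98.4 CPM in HG3, 88.7, 75.6 and 77.8 CPM in MEC2 and 227, 168 and 162 CPM in PCL12, and every PCL12 library was above all others. The lowest HG3 value was that of replicate 2, the library with 20.2% mitochondrial counts. The difference from HG3 was 1.47 ± 0.32 (adjusted p = 0.00252), with 1.78 from replicate 1 alone, against 0.27 ± 0.31 in MEC2. Over the alternatives the PCL12 difference ranged from 1.12 to 1.86, and its adjusted p reached 0.0497 with only the groups compared.

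**Figure D3:**
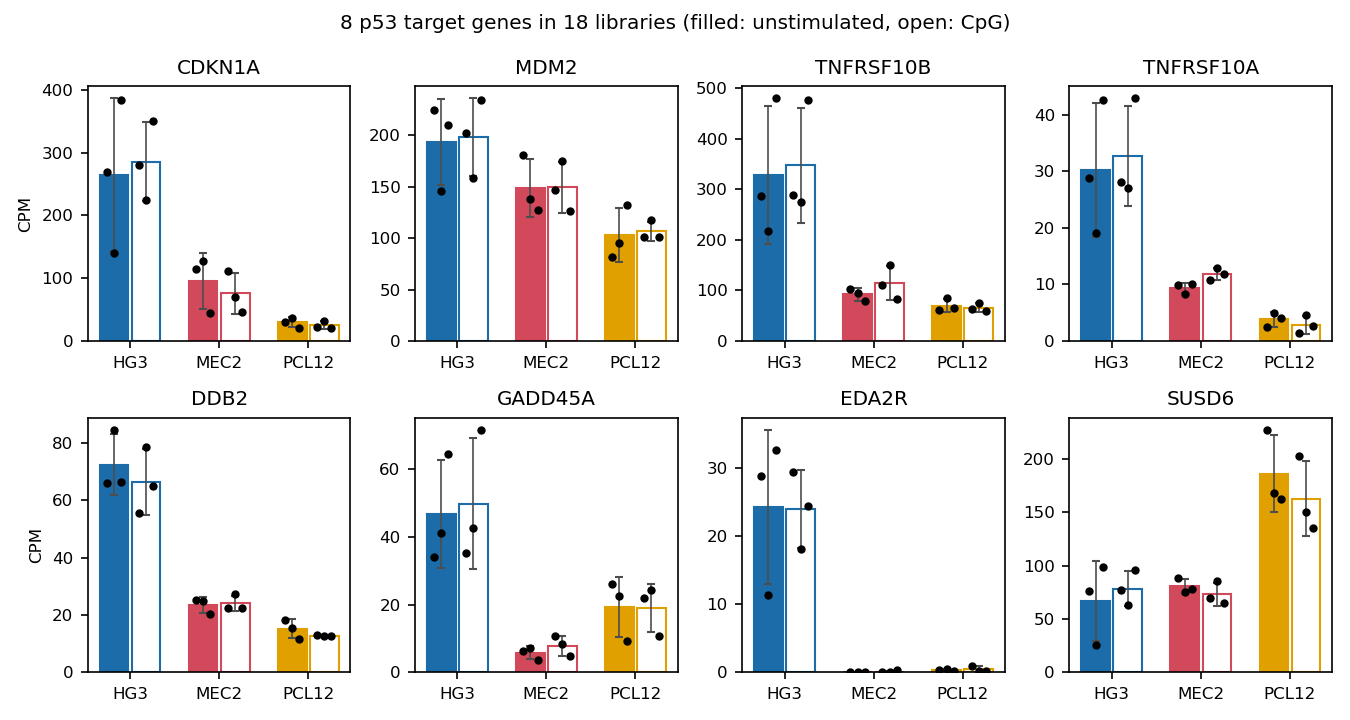
Level in CPM of 8 p53 target genes in all 18 libraries, with bars for the mean of 3 libraries, error bars for the SD, points for single libraries, filled bars for unstimulated and open bars for CpG-stimulated cells. HG3 bars are the highest for all but SUSD6, MEC2 is lowest for GADD45A, PCL12 is lowest for CDKN1A, MDM2, TNFRSF10B, TNFRSF10A and DDB2, and filled and open bars of a line lie close together.

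PCL12 and MEC2 were also compared with each other, and the number of targets called varied with the fit. At an adjusted p under 0.05, 3 of 31 were called in edgeR, against 2.05% of all genes and 4.41% of the genes averaging 1 CPM or more, and the median difference was -0.09. DESeq2 called 9, edgeR without a filter on low counts 7, and the study's definition of a DEG, a nominal P value under 0.01 with an absolute Log2FC of at least 1, took in 8, against 3.9% of all genes. The shares of all genes called by DESeq2 and without a filter are not given here, so the 9 and the 7 cannot be set against a background. GADD45A was higher in PCL12 by 1.75 ± 0.41 (adjusted p = 0.0205), as was SUSD6 by 1.20 ± 0.32 (adjusted p = 0.0435), and CDKN1A was lower, at -1.69 ± 0.40 (adjusted p = 0.0231). The GADD45A call was lost without MEC2 replicates 1 or 3 or PCL12 replicates 1 or 2 (adjusted p from 0.0777 to 0.144). The CDKN1A call was lost without MEC2 replicates 1 or 2 or PCL12 replicates 1 or 3 (adjusted p from 0.104 to 0.136) and with the replicate number as a block (adjusted p = 0.0572), and the SUSD6 call without MEC2 replicates 1, 2 or 3 or PCL12 replicates 1 or 2 (adjusted p from 0.0683 to 0.234). With replicate 1 as the only PCL12 library the differences were 2.21 (adjusted p = 0.00735) for GADD45A, 1.52 (adjusted p = 0.0821) for SUSD6 and -1.62 (adjusted p = 0.315) for CDKN1A. In that fit, whose PCL12 arm is a single library with no spread of its own, GADD45A passed the threshold and the other 30 targets did not, with 1.98% of all genes called.

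A list of 34 further p53 targets showed both directions. In MEC2, 8 were lower and 3 higher than in HG3, with a median of -0.35, and in PCL12 5 were lower and 2 higher, with a median of -0.27. Called were thus 11 and 7 of 34, beside 18% and 17.3% of the genes averaging 1 CPM or more, so the PCL12 count was near the background. The 8 lower in MEC2 became 5 without HG3 replicate 3, MEC2 replicate 2 or MEC2 replicate 3, and in PCL12 3 were lower with replicate 1 alone. The death receptor FAS was at 152, 83.7 and 214 CPM in HG3, 68.5, 63.2 and 52.03 CPM in MEC2 and 54.7, 77.8 and 65.3 CPM in PCL12 and was lower, at -1.29 ± 0.30 in MEC2 (adjusted p = 0.00466) and -1.19 ± 0.30 in PCL12 (adjusted p = 0.00966). Those calls were lost without HG3 replicate 3 (adjusted p = 0.0516) for MEC2 and without HG3 replicate 3 or PCL12 replicate 1 (adjusted p from 0.0533 to 0.0959) for PCL12, and replicate 1 alone gave -1.44 (adjusted p = 0.107). With only the groups compared, the PCL12 call of FAS was lost as well (adjusted p = 0.0575). CMBL, a hydrolase, was lower, at -2.84 ± 0.46 and -4.30 ± 0.50 (adjusted p = 9.31e-05 and 7.95e-07). The decoy TRAIL receptor TNFRSF10D was lower, at -3.32 ± 0.64 and -3.99 ± 0.67 (adjusted p = 0.00205 and 0.000507). FUCA1, a lysosomal fucosidase, was higher in PCL12 by 2.24 ± 0.30 (adjusted p = 7.88e-06), as was the diacylglycerol kinase DGKA by 2.21 ± 0.41 (adjusted p = 0.000566). In MEC2 they were higher by 1.24 ± 0.29 and 1.59 ± 0.40 (adjusted p = 0.00563 and 0.0106), and the DGKA call there was lost without HG3 replicates 1 or 3 (adjusted p from 0.0583 to 0.0592). DRAM1, a lysosomal protein of autophagy, and NINJ1, which ruptures membranes in dying cells, were lower in MEC2, at -1.60 ± 0.33 and -2.40 ± 0.47 (adjusted p = 0.00134 and 0.00177). In PCL12 DRAM1 was also lower, at -1.41 ± 0.33 (adjusted p = 0.00442), and NINJ1 had -1.05 ± 0.45 (adjusted p = 0.176). PCL12 replicate 1 alone gave -4.26 (adjusted p = 0.00258) for CMBL, -3.32 (adjusted p = 0.0300) for TNFRSF10D, 2.67 (adjusted p = 8.65e-05) for FUCA1, 2.84 (adjusted p = 0.000520) for DGKA and -1.44 (adjusted p = 0.0923) for DRAM1. PMAIP1, which encodes the BH3-only protein NOXA, was at 97.9, 73.7 and 187 CPM in HG3, 97.4, 70.4 and 63.6 CPM in MEC2 and 88.3, 136 and 62.8 CPM in PCL12 and was not called.

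p53 also lowers genes of cell division, indirectly, through p21 and the DREAM repressor complex. Of 12 such genes, 9 were higher in MEC2 than in HG3 and 0 lower, with a median of 1.19, against 9.17% of the genes averaging 1 CPM or more called higher. KIF23 and CCNB2, both needed for mitosis, were higher by 1.49 ± 0.25 and 1.498 ± 0.28 (adjusted p = 0.000174 and 0.000484). CCNB1, PLK1 and CCNA2, which drive the cell into and through mitosis, were higher by 1.28 ± 0.27, 1.27 ± 0.28 and 1.45 ± 0.32 (adjusted p = 0.00211, 0.00233 and 0.00261). In PCL12 2 of the 12 were higher, against 9.14% of the genes averaging 1 CPM or more, namely CCNB1 by 0.99 ± 0.27 (adjusted p = 0.0176) and the mitotic checkpoint kinase gene BUB1 by 0.76 ± 0.25 (adjusted p = 0.0495). Replicate 1 alone gave 0.80 (adjusted p = 0.364) and 0.54 (adjusted p = 0.606), and the count was 0 without HG3 replicate 3, without PCL12 replicate 3 and with PCL12 replicate 1 alone, 1 without HG3 replicate 2 or PCL12 replicate 2, and 4 without HG3 replicate 1. Among CpG-stimulated cells 3 were higher in MEC2 than in HG3, against 8.86%. That count was 1 without HG3 replicate 1 or HG3 replicate 3, 7 without MEC2 replicate 2, the library with 19.7% mitochondrial counts, and 2 without any other 1 of the 6 libraries, and DESeq2 gave 6. In stimulated PCL12 0 of the 12 were called against HG3, with a median of 0.28, against 8.65% of all genes called in either direction.

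Most of the differences called against HG3 were also called in the CpG-stimulated cells, which are other libraries of the same lines. After CpG, 13 targets were lower in MEC2 than in HG3 (9.13% of all genes called, 4.52% as lower, and 8.27% as lower among genes averaging 1 CPM or more), and 12 of them had been called in unstimulated cells. In PCL12, 16 were lower and SUSD6 was higher (8.65% of all genes called, 4.16% as lower, with a median of 0.11 over all genes), and all 17 had been called in unstimulated cells. PHLDA3 and TP53I3 in MEC2 and PLK3 in PCL12 had been called in unstimulated cells and were not called after CpG. HG3 had the highest mean level for 24 targets, against 32.8% of all genes and 35.2% of those averaging 1 CPM or more. CDKN1A, for example, was at 279, 225 and 351 CPM in HG3, 111, 69.98 and 45.9 CPM in MEC2 and 21.5, 31.9 and 20.3 CPM in PCL12, which is -1.91 ± 0.40 in MEC2 and -3.54 ± 0.43 in PCL12 relative to HG3 (adjusted p = 0.00235 and 4.59e-06). DDB2 was at 55.6, 78.6 and 65.1 CPM in HG3, 22.5, 27.2 and 22.6 CPM in MEC2 and 13.1, 12.6 and 12.8 CPM in PCL12, again without overlap. With PCL12 replicate 1 alone, where the spread again comes from the other groups, 9 of the 17 passed the test again, with 4.27% of all genes called. Between stimulated PCL12 and MEC2, 5 targets were lower in PCL12 (1.93% of all genes called), namely CDKN1A, DDB2, TNFRSF10A, POLH and PLK2. GADD45A (1.26, adjusted p = 0.128) and SUSD6 (1.16, adjusted p = 0.0571), called between these lines in unstimulated cells, were not called after CpG. The count of 5 fell to 1 without MEC2 replicate 1, MEC2 replicate 2 or PCL12 replicate 1, and to 3 without PCL12 replicate 2. The DDB2 call was lost without any 1 of the 6 libraries (adjusted p from 0.0578 to 0.179), and the POLH call without any except PCL12 replicate 3 (adjusted p from 0.0634 to 0.282). The calls of CDKN1A and PLK2 were lost without MEC2 replicates 1 or 2 or PCL12 replicates 1 or 3 (adjusted p from 0.103 to 0.184 and from 0.1099 to 0.255). With PCL12 replicate 1 alone, 1.7% of all genes and 1 target were called, TNFRSF10A at -3.06 (adjusted p = 0.00252), while CDKN1A had -1.80 (adjusted p = 0.247), DDB2 -0.87 (adjusted p = 0.447), POLH -1.996 (adjusted p = 0.0601) and PLK2 -2.57 (adjusted p = 0.175).

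No change of a target gene after 4 h of CpG stimulation passed the test. In edgeR, 0 of 31 passed an adjusted p of 0.05 in HG3, in MEC2 and in PCL12, as in DESeq2 and limma-voom. Over all genes the same threshold called 0.00314% in HG3, 0.00314% in MEC2 and 0% in PCL12, so the number of genes that passed it was 1, 1 and 0 of 31872. The study's definition of a DEG was set for P values of limma and is applied here to those of the unpaired edgeR fit, where 0 targets met it in each line, against 0.496%, 0.251% and 0.116% of all genes. In limma-voom 0 targets met it, against 0.882%, 0.477% and 0.649%, and with the replicate block in edgeR 0, against 0.731%, 0.555% and 0.242%. From its own limma fit the study reported more DEGs in each line than any of these fits gave. The absence of targets is therefore a result of these fits and not of the study. At an unadjusted P under 0.05 there were 0 targets in HG3, 1 in MEC2 and 0 in PCL12, against 3.73%, 2.46% and 2.09% of all genes. The median fitted change over the 31 targets was 0.05 in HG3, 0.05 in MEC2 and -0.03 in PCL12, against 0, 0 and 0.02 over all genes. For the 27 targets other than EDA2R, PHLDA3, GDF15 and SPATA18, the lowest and highest fitted changes were -0.26 and 0.37 for HG3, -0.42 and 0.91 for MEC2, and -0.62 and 0.50 for PCL12. Their SE had a median of 0.31, 0.32 and 0.32, and small changes of single genes were not detectable at this spread.

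**Figure D4:**
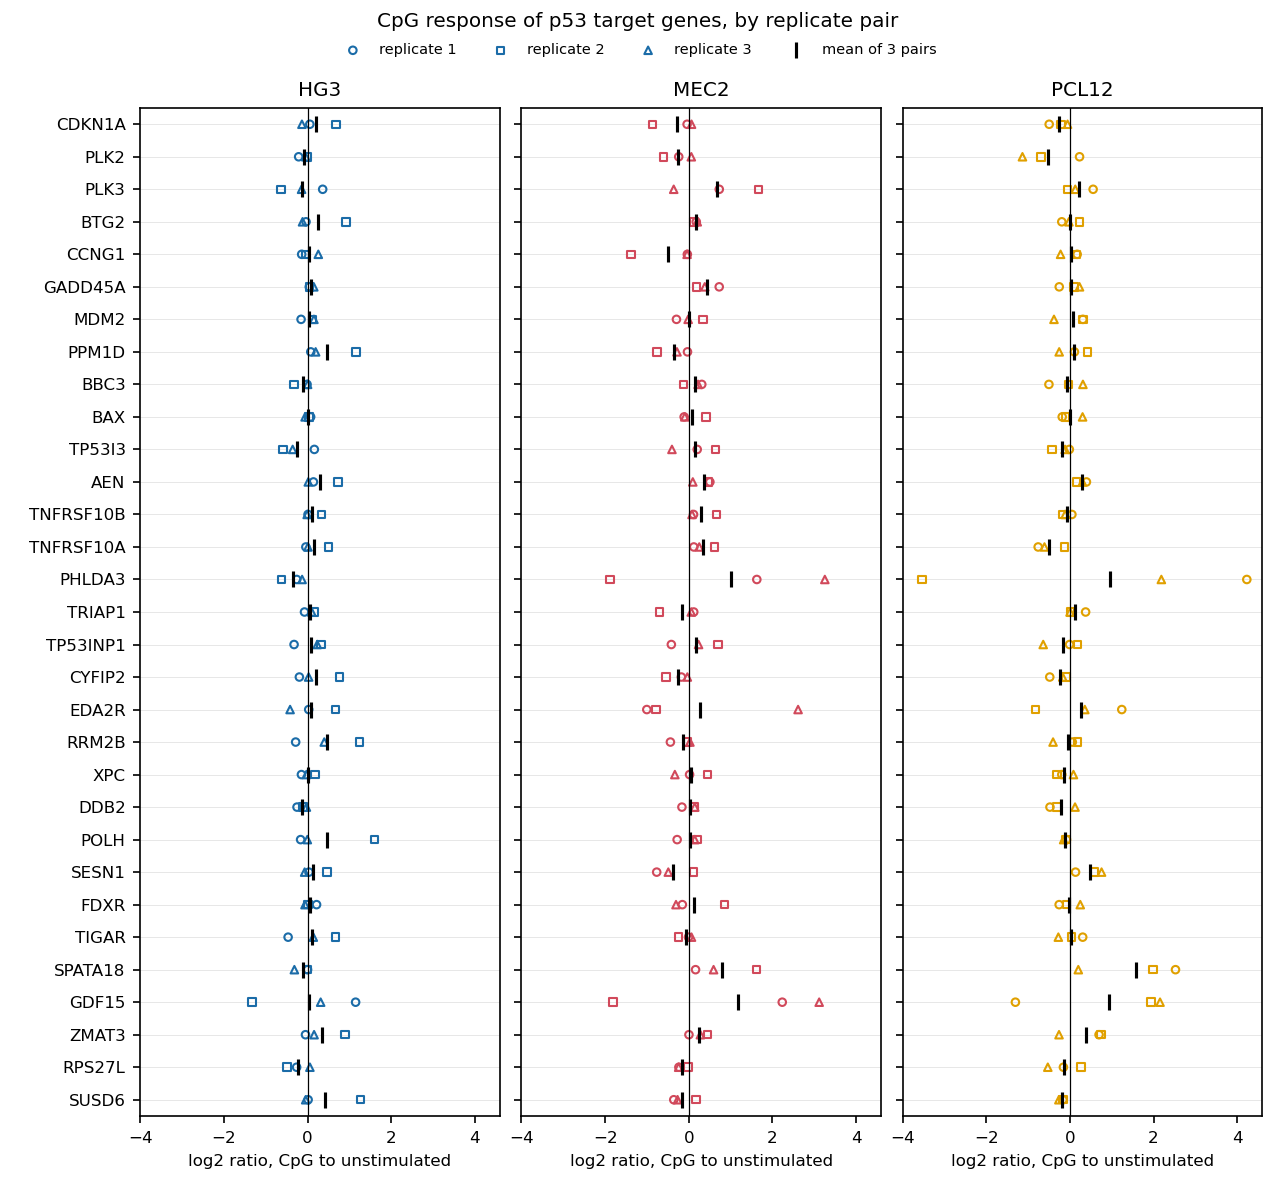
Log2 ratio of CpG-stimulated to unstimulated CPM for the 31 p53 target genes in HG3, MEC2 and PCL12, with an open symbol for each of the 3 replicate pairs and a black bar for their mean. Most means lie within 0.5 of 0 (31, 27 and 27 genes), and the points farthest from 0 belong to the scarcely expressed PHLDA3, GDF15, EDA2R and SPATA18 in MEC2 and PCL12.

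Each replicate series held 1 stimulated and 1 unstimulated sample, so a log2 ratio was taken for each pair. All 3 ratios were above 0 for 3 targets in HG3 (AEN, PPM1D and GADD45A), 7 in MEC2 and 4 in PCL12, and all 3 were below 0 for 3, 4 and 6. Among genes averaging 1 CPM or more, all 3 were above 0 for 8.31%, 11.1% and 8.11% and below 0 for 10.8%, 13.4% and 12.8%. The mean over the pairs lay within 0.5 of 0 for 31, 27 and 27 targets. CDKN1A had ratios of 0.06, 0.68 and -0.13 in the HG3 pairs, -0.04, -0.87 and 0.07 in the MEC2 pairs and -0.50, -0.21 and -0.06 in the PCL12 pairs, so its pairs pointed in both directions in HG3 and MEC2. MDM2 had -0.15, 0.12 and 0.15 in the HG3 pairs, -0.29, 0.34 and -0.01 in the MEC2 pairs and 0.31, 0.31 and -0.38 in the PCL12 pairs, so its pairs pointed in both directions in every line. In HG3 the pair of replicate 2 had the highest ratio for 18 of 31 targets, against 52.4% of the genes averaging 1 CPM or more, and its unstimulated library held 20.2% mitochondrial counts. The part of that library in the ratios was not tested.

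AEN had ratios above 0 in all 9 pairs, 0.14, 0.72 and 0.02 in the HG3 pairs, 0.51, 0.48 and 0.10 in the MEC2 pairs and 0.40, 0.16 and 0.30 in the PCL12 pairs. PMAIP1 and DRAM1, of the further targets, also had ratios above 0 in all 9 pairs. The share of all genes with this pattern is not given here. The mean change of AEN over the lines was 0.30 ± 0.14 (adjusted p = 1.00), and it was the only target with an unadjusted P under 0.05 in that test, against 4.04% of all genes. That P was above 0.05 in 10 of the 18 fits with 1 library left out (0.0508 to 0.0960) and with PCL12 replicate 1 alone (0.0873). An adjusted p under 0.05 was reached there by 0.00941% of all genes and by 0 targets. PLK3 in MEC2 had the only unadjusted P under 0.05 in a single line. It went from 23.5, 17.1 and 15.6 CPM to 39.03, 54.5 and 12.2 CPM, a change of 0.91 ± 0.36 (adjusted p = 1.00), and replicate 3 went down. Without the stimulated library of replicate 3, PLK3 met the study's definition of a DEG, with 1.32 on the log2 scale. Without the stimulated library of replicate 2, the one with 19.7% mitochondrial counts, the change was 0.46 (unadjusted P = 0.228), and the unadjusted P was also above 0.05 without stimulated replicate 1 or unstimulated replicates 2 or 3 (0.0508, 0.0541 and 0.0638). The difference of its change in MEC2 from that in HG3 was 1.08 ± 0.51 and did not pass the test (adjusted p = 1.00).

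SESN1 had ratios of 0.13, 0.58 and 0.76 in the PCL12 pairs, all above 0, while its MEC2 ratios were -0.77, 0.11 and -0.49. GADD45A had ratios above 0 in all pairs of HG3 (0.04, 0.05 and 0.15) and MEC2 (0.73, 0.19 and 0.38), and its PCL12 ratios were -0.25, 0.10 and 0.23. In MEC2 the ratios were 0.12, 0.66 and 0.08 for TNFRSF10B and 0.12, 0.62 and 0.25 for TNFRSF10A. PMAIP1, the NOXA gene, was outside the 31 targets and had a mean change of 0.52 ± 0.23 over the lines (adjusted p = 1.00). MDM4 had 0.57 ± 0.28 in MEC2 (adjusted p = 1.00), and without the stimulated library of replicate 2, the one with 19.7% mitochondrial counts, the value was -0.0014. FAS had 0.17 ± 0.30, 0.45 ± 0.30 and 0.42 ± 0.30 in the 3 lines. Of the 24 regulators, the 34 further targets and the 12 genes repressed through p21, 0 passed an adjusted p of 0.05 in any line, in edgeR, DESeq2 or limma-voom. At an unadjusted P under 0.05 the regulators numbered 0, 1 and 1 and the further targets 0, 2 and 1 in HG3, MEC2 and PCL12, with 0 of the genes repressed through p21.

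With the replicate pairs as a block in the fit, which raised the share of all genes called in MEC2 to 0.333%, the 31 targets still gave 0 calls in each line, and 1 gene of the 3 other lists passed. That gene, TRAF4, an adaptor of TNF receptor signalling in the list of further targets, went from 216, 184 and 157 CPM to 442, 515 and 227 CPM in MEC2 and is named here after its values were seen. All 3 pairs were above 0. The change was 1.02 ± 0.21 with the block (adjusted p = 0.00145) and 1.09 ± 0.30 without it (adjusted p = 1.00). Its ratios were 0.49, 0.0038 and 0.04 in the HG3 pairs and 0.84, 0.21 and 0.84 in the PCL12 pairs, also all above 0.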

How the data were processed

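RNA-seq libraries of the lines HG3, MEC2 and PCL12, unstimulated or stimulated with CpG, were analysed from the table of raw counts per gene that the authors deposited for all 18 libraries. According to the study's methods and the submitters' processing notes, single stranded-protocol reads were checked with FastQC and MultiQC, trimmed with Trimmomatic, aligned to hg38 with STAR and counted with featureCounts. Versions, gene annotation and the strand setting of the counting are not given in the sources used here, and the study's methods and the labels name different RNA extraction kits. A read that fits several genes could be lost or counted for a related gene, and counts were not corrected for gene length.

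A gene was kept when its counts over the libraries added up to 10 or more (31872 of 42248 with a count), and 0 rows named no gene. Counts were scaled by TMM and fitted with edgeR 4.0.16 (R 4.3.3) in 1 robust quasi-likelihood model of 6 group means with 12 residual degrees of freedom, from which lines and treatments were compared at a Benjamini-Hochberg adjusted p under 0.05 over all genes. The fitting steps were first run on counts simulated from these libraries with known changed genes. Log2 ratios of replicate pairs used CPM with a prior count of 2. Intervals of count ratios are exact 95% intervals, and these and the floor of 3 counts for a library at 0 cover counting error only. Depth was 20382943 to 67308932 counts.

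The labels number the replicates 1 to 3 in each group, and the series' design gives each replicate series 1 stimulated and 1 unstimulated sample, so pairs lie within a line. Same-numbered libraries deviated together with correlations of 0.0579 to 0.203 in HG3, -0.0785 to 0.327 in MEC2 and 0.149 to 0.216 in PCL12, and of -0.114 to 0.202 across lines. Alternatives were DESeq2 1.42.0, limma-voom (limma 3.58.1), RLE scaling, library totals, filterByExpr, no filter, the replicate block, only the groups compared, each library left out in turn, and a fit without the PCL12 libraries of replicates 2 and 3. The comparisons of CpG-stimulated lines were added after the data had been seen.

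The target genes and the lists of 24 p53 regulators, 34 further targets, 12 genes repressed through p21, 8 B cell markers and 12 markers of other cells (9 tested) were chosen with earlier results of these data known. Named were all 31 targets, at most 5 called genes per further list and comparison by smallest P, and MDM4, FAS and PMAIP1. A further gene of this rule is not reported here. Promoter windows are RefSeq's (GRCh38.p14) and gene positions GENCODE 44's. Figures were drawn with matplotlib 3.10.9 in Python 3.11.15.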

Additional observations from a re-analysis of the deposited data

Results flagged for a closer look

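For PPM1D and TNFRSF10A, every replicate pair of 1 line lay above 0 after CpG and every pair of another line below 0. PPM1D had log2 ratios of 0.08, 1.16 and 0.19 in the HG3 pairs and -0.03, -0.76 and -0.28 in the MEC2 pairs. The difference of the fitted changes, MEC2 minus HG3, was -0.72 ± 0.45 (adjusted p = 1.00) and did not pass the test. The HG3 pair with the largest ratio included the unstimulated library with 20.2% mitochondrial counts, where PPM1D was lowest, and its part in the difference was not tested. TNFRSF10A had ratios of 0.12, 0.62 and 0.25 in the MEC2 pairs and -0.76, -0.12 and -0.61 in the PCL12 pairs, and PCL12 minus MEC2 was -0.77 ± 0.52 (adjusted p = 1.00), which did not pass either. With 3 libraries in each group, single libraries were not tested for lying apart from their group.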

How the results depend on the processing

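The count of targets called in unstimulated MEC2 against HG3 (14) ranged from 10 to 17 over all alternatives, and that in PCL12 against HG3 (18) from 12, with library totals or without HG3 replicate 3, to 20, apart from 8 without the PCL12 libraries of replicates 2 and 3. With library totals in place of TMM the median of all genes shifted by 0.11 in MEC2 and 0.15 in PCL12 against HG3. Except where stated above, the shares of all genes called in the alternatives are not given here. Whether the counts of targets follow those shares was not tested. For unstimulated PCL12 against MEC2 (3), DESeq2 gave 9, limma-voom 1, no filter 7, only the groups compared 5, the fit without the PCL12 libraries of replicates 2 and 3 gave 1, and leaving out each library gave 0 to 2, with 0 without MEC2 replicate 1 or PCL12 replicate 1 and 1 without MEC2 replicate 2 or 3. For CpG-stimulated PCL12 against HG3 (17), the fit without those PCL12 libraries gave 9. For CpG-stimulated PCL12 against MEC2 (5), DESeq2 gave 9, library totals 2, the fit without those libraries 1, and leaving out each library 1 to 5. By the study's definition, CpG in MEC2 (0) gave 1 target without a filter, the scarcely expressed PHLDA3, and 0 to 1 with each library left out, the 1 being PLK3 without CpG replicate 3. The CpG change of MDM4 in MEC2 reversed to -0.0014 without CpG replicate 2, and with each library left out it ranged up to 0.81.

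With the replicate number as a block, the unstimulated comparisons called 14, 18 and 3 targets, those of stimulated lines 12, 16 and 5, and CpG 0 in each line. The correlations of same-numbered libraries were not over 0.1 in every pair of HG3 and MEC2, so there the pairing rests on the series' design. For single genes between lines, 452 values kept direction and side of the adjusted threshold and 88 no longer passed it. For the CpG changes of PLK3, MDM4, AEN and PMAIP1, none of which passed the adjusted threshold, an unadjusted P of 0.05 was used instead, by which 45 values were kept, 34 no longer passed and 1 reversed. In the comparisons of stimulated lines, added after the data had been seen, 455 kept direction and side of the adjusted threshold and 86 no longer passed it. With only the groups compared, the calls of CDKN1A and TP53I3 in MEC2 and of GADD45A, XPC, CCNG1, POLH, MDM2 and FAS in PCL12 against HG3 were lost, with library totals those of PLK3, GADD45A, XPC, CCNG1, POLH and MDM2 in PCL12, in limma-voom that of POLH against HG3 and those of GADD45A and CDKN1A between PCL12 and MEC2, and without a filter that of XPC in PCL12. The cause of these changes was not tested. Genes with few counts (EDA2R, PHLDA3, GDF15 and SPATA18) have fitted fold changes that depend on the prior count.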
